A study of Homo sapiens with 4 samples.

Results

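Chromosome 20 held 2527 of the 86207 H3K27ac peaks (2.93%) in MOLM13 cells treated with SNDX-50469 and OTX015 together, and 1790 of the 55852 peaks (3.20%) in cells treated with OTX015 alone. All peaks on this chromosome in each list were taken, with no further selection. MOLM13 is a human acute myeloid leukemia line that carries the MLL-AF9 fusion. The combination was 500 nM SNDX-50469, an inhibitor of Menin, with 500 nM OTX015, and the other treatment was 500 nM OTX015 by itself, so every cell measured here had received the BET inhibitor, and both exposures lasted 16 hours. There was 1 ChIP library per treatment. No difference below therefore has a replicate check or a test, intervals cover counting error only, and each value describes a pair of libraries from 1 cell line.

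Acetylation of lysine 27 of histone H3 marks active promoters and enhancers. BET proteins read acetylated histones and carry transcription factors and elongation factors to these sites, and OTX015 blocks that reading without being an inhibitor of the acetylation itself. Menin is the scaffold that holds MLL fusion proteins on chromatin at the genes that keep this kind of leukemia immature. Chromosome 20 carries several genes of the myeloid lineage, among them the SIRP family of receptors that inhibit or aid phagocytosis, the transcription factor CEBPB, the chromatin regulator ASXL1 and the MLL-leukemia gene LAMP5. It also carries clusters of genes for secreted proteins of epithelia and the male reproductive tract, namely cystatins, beta-defensins, BPI-fold proteins and WAP-domain inhibitors.

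The largest contrast was between the first 25 Mb of the chromosome and the rest. In the combination list 82.6% of the bases under chromosome 20 peaks lay in the first 25 Mb, against 66.5% in the OTX015 list. This boundary was chosen after the values were seen. Peaks covered 843.6 kb of those 25 Mb with the combination and 518.3 kb with OTX015, a ratio of 1.63, whereas in the 39.28 Mb that follow they covered 177.7 kb with the combination and 261.6 kb with OTX015, a ratio of 0.679. The first 25 Mb hold 171 of the 531 protein-coding genes used here, at 6.84 genes per Mb, and the rest holds 360 genes, at 9.16 per Mb, so the stretch with more bases under peaks was the one with fewer genes. The input libraries were not used, and a part of DNA copy number in this cover was not tested. The lists differ in the background inferred from their peaks, while read depth itself is unknown. Solving the lowest peak values for their background gave 1.47 fragments per base for the combination and 0.764 for OTX015, so a ratio above or below 1 between the lists depends on how they are put on 1 scale. When the combination list was cut to as many peaks as the OTX015 list, the ratios became 1.13 and 0.426, and when it was cut to the enrichment over background that every OTX015 peak reaches, they became 0.0664 and 0.0304. The last cut lies at the lowest enrichment of the OTX015 list, 6.54, where that of the combination list is 4.76. No OTX015 peak can fail it, and it kept 30 of 2527 combination peaks, so its low ratios follow from the cut itself. The share of combination cover in the first 25 Mb moved little, to 84.1% with equal peak numbers and 81.2% over those 30 peaks.

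The sequences of promoters with peaks are shown first because promoter peaks tie the acetylation to single genes of the chromosome. For the pair with peaks in both lists, and for the genes ranked highest among those with a promoter peak in 1 list only, the RefSeq promoter on GRCh38.p14 is given from 250 bases before to 50 bases after the start of transcription, 5′ to 3′ on the strand of the gene. A promoter peak here is a peak that reaches within 1 kb of the 5′ end of a protein-coding gene. Capitals mark any match, on either strand, to GGGCGG (GC box), CCGGAA (an ETS site), CCAAT (the CCAAT box), CACGTG (the E box), TATAAA (the TATA box), TGTGGT (a RUNX site), TTGCNNAA (a C/EBP site), AACNGTT (a MYB site), TGACGTCA (the cyclic AMP response element) or AAGATGG (a YY1 site). The last pair of motifs was added after the sequences had been read. MGME1, a mitochondrial exonuclease, and SNX5, a sorting nexin, stand head to head, at chr20:17968768-17969067 on the plus strand and chr20:17968745-17969044 on the minus strand, so their windows hold nearly the same bases read from opposite strands. The start of transcription used for the MGME1 sequence lies 428 bases from the 5′ end used for its promoter peak.
MGME1: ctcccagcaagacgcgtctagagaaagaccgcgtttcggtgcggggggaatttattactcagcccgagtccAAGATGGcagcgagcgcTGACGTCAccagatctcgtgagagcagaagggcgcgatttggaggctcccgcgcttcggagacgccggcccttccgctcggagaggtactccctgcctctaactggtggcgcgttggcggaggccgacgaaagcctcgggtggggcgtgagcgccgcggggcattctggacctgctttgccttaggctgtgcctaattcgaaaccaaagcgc
SNX5: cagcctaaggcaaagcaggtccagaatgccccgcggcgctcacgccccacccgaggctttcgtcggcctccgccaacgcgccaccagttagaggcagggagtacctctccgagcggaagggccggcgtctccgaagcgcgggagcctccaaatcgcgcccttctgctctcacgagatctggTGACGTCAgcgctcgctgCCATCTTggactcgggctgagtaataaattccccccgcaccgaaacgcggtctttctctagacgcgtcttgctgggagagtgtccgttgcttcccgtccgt
The combination list alone had a peak at the promoter of CTSZ, which encodes the lysosomal protease cathepsin Z (chr20:59007205-59007504, minus strand), and at that of SSTR4, a somatostatin receptor (chr20:23035062-23035361, plus strand).
CTSZ: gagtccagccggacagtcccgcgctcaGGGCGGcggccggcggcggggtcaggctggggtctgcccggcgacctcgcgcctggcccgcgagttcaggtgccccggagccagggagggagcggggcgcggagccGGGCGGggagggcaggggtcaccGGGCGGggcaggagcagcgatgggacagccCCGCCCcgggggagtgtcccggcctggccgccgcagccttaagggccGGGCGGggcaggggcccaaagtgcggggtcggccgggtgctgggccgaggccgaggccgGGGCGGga
SSTR4: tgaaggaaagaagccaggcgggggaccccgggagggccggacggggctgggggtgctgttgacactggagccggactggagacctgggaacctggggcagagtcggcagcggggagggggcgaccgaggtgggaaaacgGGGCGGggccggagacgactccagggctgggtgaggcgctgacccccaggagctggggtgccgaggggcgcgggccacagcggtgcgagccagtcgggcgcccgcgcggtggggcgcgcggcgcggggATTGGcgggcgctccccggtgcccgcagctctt
The OTX015 list alone had a peak at the promoter of CEBPB, a basic leucine zipper factor of myeloid differentiation (chr20:50190333-50190632, plus strand), and at that of PCIF1, the methyltransferase that modifies the cap-adjacent adenosine of mRNA (chr20:45934433-45934732, plus strand).
CEBPB: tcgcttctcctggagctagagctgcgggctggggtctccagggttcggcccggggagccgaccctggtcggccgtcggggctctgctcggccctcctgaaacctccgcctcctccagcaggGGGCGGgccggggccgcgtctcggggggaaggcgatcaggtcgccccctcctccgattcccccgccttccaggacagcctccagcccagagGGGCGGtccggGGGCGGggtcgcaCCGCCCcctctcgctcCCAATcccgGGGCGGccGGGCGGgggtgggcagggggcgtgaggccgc
PCIF1: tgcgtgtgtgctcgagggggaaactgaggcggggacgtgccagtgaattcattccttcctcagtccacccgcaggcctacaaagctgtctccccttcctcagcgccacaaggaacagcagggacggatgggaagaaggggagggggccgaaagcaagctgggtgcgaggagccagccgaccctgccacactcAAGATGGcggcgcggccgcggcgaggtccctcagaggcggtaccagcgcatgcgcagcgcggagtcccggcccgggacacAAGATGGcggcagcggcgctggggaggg

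The MGME1 and SNX5 promoters share 1 match to TGACGTCA and 1 to AAGATGG and had no match to the other letters searched. The CTSZ promoter has 6 GC boxes and 81.0% G and C bases, and the CEBPB promoter has 6 GC boxes, 1 CCAAT match and 77.0% G and C. PCIF1 has 2 matches to AAGATGG and no GC box. RefSeq promoters were matched for 357 of the 531 genes (67.2%), fewer than 80%, so shares by class are incomplete. GGGCGG was found in 56.2% of the 32 matched promoters with a peak in both lists, in 59.5% of the 37 with the combination only, in 66.7% of the 21 with OTX015 only, and in 59.1% of all 14567 matched promoters of the genome. CCGGAA was found in 43.8%, 24.3% and 19% of the same 3 classes and in 23.4% of all promoters. CCAAT ran the other way, with 18.8%, 18.9% and 38.1% of the classes and 36.8% of all promoters. TGACGTCA was found in 2.67% and AAGATGG in 6.59% of all promoters, and of the 4 and 5 matches in the class with peaks in both lists, 2 each are the 1 site that MGME1 and SNX5 share. The classes are small, with 21 to 37 promoters, and a match describes letters, not a bound factor.

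Of the listed marker genes, those of the myeloid lineage had the most cover in both libraries. Within gene records and 10 kb either side, all 16 listed myeloid marker genes had peaks with the combination and 15 did with OTX015, with 118.6 kb and 94.8 kb in sum. The 5 genes that mark cells outside blood had 0.627 kb with the combination and 0.257 kb with OTX015, with no peak at ALB or KRT5. Markers of other blood lineages were not bare, as 4 of 5 B cell genes had peaks with the combination and 2 with OTX015 (7.21 and 2.84 kb), 3 and 2 of 5 T cell genes (1.94 and 1.16 kb), and 2 and 1 of 5 erythroid genes (3.35 and 0.499 kb). CD3E, GATA1 and HBG1 had none in either list. The median per gene was 7.12 kb with the combination and 5.47 kb with OTX015 for the myeloid list. For B cell genes, the next highest, it was 0.855 kb and 0. The share of all genes with a peak in this window was not computed. The marker lists were also not matched by chromosome, and cover differed widely between chromosomes. Chromosome 19, for example, had 3.52% of its length under peaks with the combination and 2.64% with OTX015, and chromosome 4 0.141% and 0.149%. How much of the contrast between the marker lists goes with their chromosomes was not tested. Across the whole genome chromosome 20 ranked 4 of 24 by percent of its length under peaks in both lists, with 1.59% with the combination and 1.21% with OTX015. Its ratio of combination to OTX015 cover was 1.31 and ranked 5, after chromosomes 8 and 6 (2.21 each), 13 (1.72) and 19 (1.33). With chromosome 5 also left out as dense, the 18 other chromosomes had a ratio of 0.996 over their sum, with a range from 0.0620 to 1.13. The low end is chromosome Y, with 2 peaks with the combination and 23 with OTX015, and the next lowest was X at 0.751.

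Most peaks were short. The median width was 287 bases with the combination and 272 bases with OTX015, and the largest peaks were 8947 and 12413 bases. The highest −log10 p was 7.78 with the combination and 12.35 with OTX015, and 473 of 2527 peaks (18.7%) and 520 of 1790 peaks (29.1%) sat at the lowest value the caller kept. Only 224 and 136 peaks had a −log10 q of 2 or more. Peaks of 2 kb or wider numbered 29 with the combination, with 10.6% of the bases covered, and 43 with OTX015, with 19.4%. Beyond 25 Mb the wide peaks numbered 4 with the combination and 17 with OTX015, with 13.3 kb and 57.7 kb. Promoters held 3.88% and 3.91% of the peaks, protein-coding gene records outside promoters 46.5% and 46.3%, and sequence outside those records 49.6% and 49.8%, so the lists had like proportions. In the first 25 Mb 3.23% of combination peaks and 2.73% of OTX015 peaks were at promoters, and beyond it 6.58% and 6.61%.

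Along the chromosome the first 5 Mb held most cover in both lists, with 379.7 kb with the combination and 177.8 kb with OTX015, a ratio of 2.14, and this bin ranked 26 and 30 among the 606 full bins of the genome. In the later bins before 25 Mb the excess with the combination was smaller, though it did not fall steadily, with ratios of 1.59, 1.73, 1.19 and 1.15. From 5 to 10 Mb there were 169.8 kb with the combination and 106.6 kb with OTX015, from 10 to 15 Mb 69.5 and 40.1 kb, from 15 to 20 Mb 72.8 and 61.3 kb, and from 20 to 25 Mb 151.8 and 132.5 kb. Among 5 Mb bins the direction turned at the next one. At 24 to 25 Mb OTX015 already had more, 21.7 kb against 7.63 kb with the combination. From 25 to 30 Mb, which spans the centromere, there were 13.9 kb with the combination and 35.4 kb with OTX015, a ratio of 0.393, and from 30 to 35 Mb 17.2 and 34.0 kb.

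**Figure D1:**
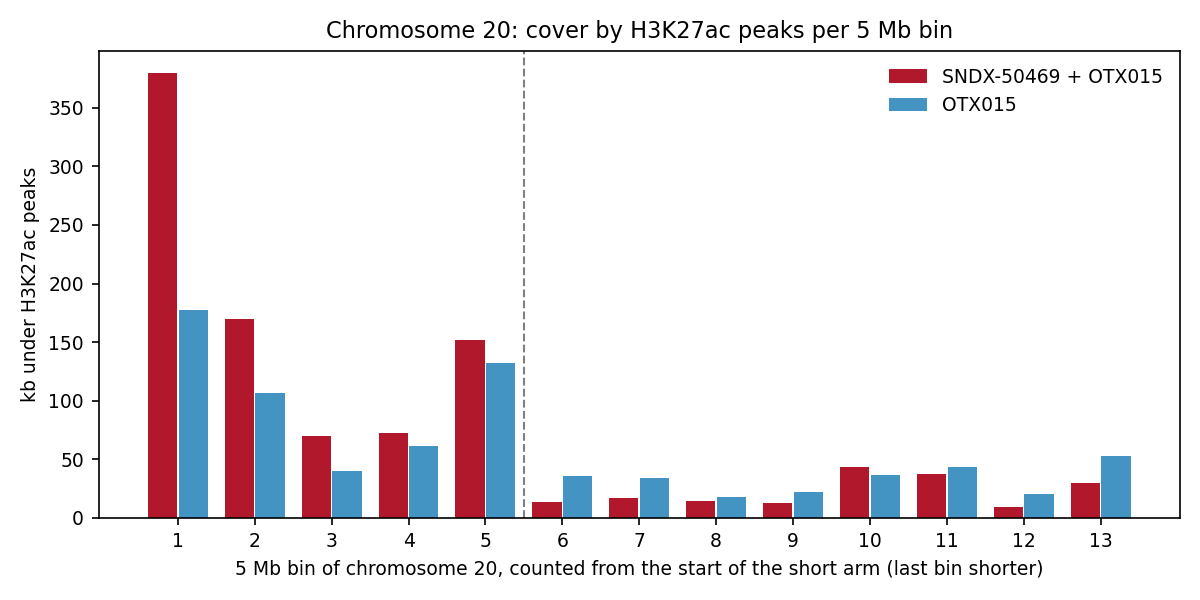
Kilobases under H3K27ac peaks in each 5 Mb bin of chromosome 20 (bars, SNDX-50469 with OTX015 left of OTX015), with bins numbered from the start of the short arm and a dashed line at the boundary of 25 Mb. Combination bars are the taller ones in bins 1 to 5, with 379.7 against 177.8 kb in the first, and OTX015 bars in all later bins but the bin of 45 to 50 Mb.

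On the long arm the combination list had 14.5 kb from 35 to 40 Mb and OTX015 18.1 kb, and from 40 to 45 Mb 13 and 21.7 kb. The bin from 45 to 50 Mb was the only one beyond 25 Mb with more cover with the combination, 43.1 against 36.7 kb. The excess lay mostly from 48 to 49 Mb, with 15.05 and 10.15 kb, and from 49 to 50 Mb, with 9.11 and 3.31 kb. ZMYND8, OCSTAMP and PCIF1 lie in the same 5 Mb bin but before 48 Mb. The last bins had 37 and 43.3 kb, 9.50 and 20.0 kb, and, from 60 Mb to the end, 29.6 and 52.5 kb. In all, 6 of 13 bins had more cover with the combination. In bins of 1 Mb the same division appeared, since 20 of the 25 bins before 25 Mb had more cover with the combination and 29 of the 40 later bins had less, 7 had more and 4 had none in either list. The widest single difference was from 1 to 2 Mb, with 101.1 kb with the combination and 31.0 kb with OTX015.

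**Figure D2:**
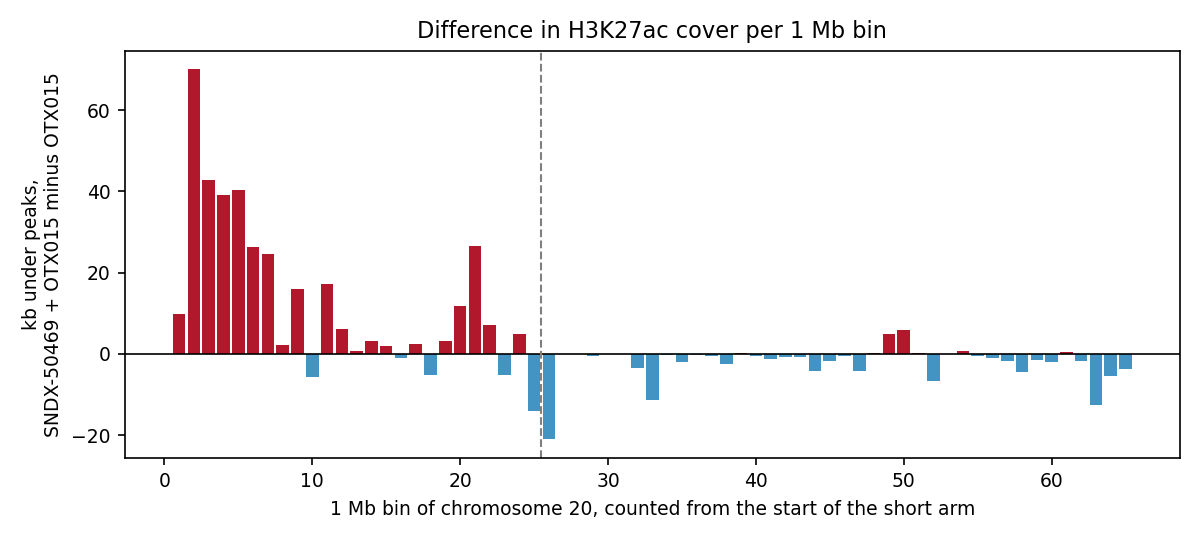
Difference in kilobases under H3K27ac peaks per 1 Mb bin of chromosome 20, SNDX-50469 with OTX015 minus OTX015 (red above 0, blue below 0), with bins numbered from the start of the short arm and a dashed line at 25 Mb. The excess is tallest in the bin of 1 to 2 Mb, 101.1 against 31.0 kb, and bins near and past the dashed line mostly fall below 0.

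The stretch of greatest excess was the SIRP cluster. Between the outer ends of SIRPD and SIRPA (chr20:1534251-1940592) the combination list had 118 peaks with 63.2 kb, and the OTX015 list 33 peaks with 14.9 kb. All 5 genes of the family, SIRPA, SIRPB1, SIRPB2, SIRPD and SIRPG, had more bases within 10 kb of the 5′ end with the combination, 20.2 kb against 7.45 kb in sum, and all 5 had a promoter peak with the combination, against 2 with OTX015. Their surroundings leaned the same way, as 119 of 171 genes in the first 25 Mb had more with the combination. In the first 5 Mb 41 of 80 genes had a promoter peak with the combination and 22 with OTX015. SIRPA, the inhibitory receptor for CD47 on myeloid cells (chr20:1894167-1940592), had 10.3 kb with the combination and 4.55 kb with OTX015. SIRPB1, its activating relative, had 3.56 and 2.03 kb. SIRPD had 2.79 and 0.876 kb, while SIRPB2 had 1.80 kb and SIRPG 1.75 kb with the combination and no peak in that window with OTX015. When peaks within 12.5 kb were joined, the largest domain of the combination list ran from SIRPG past SIRPA to PDYN over 304.3 kb, with 56.6 kb under peaks, against 12.6 kb with OTX015. SIGLEC1, the sialic acid receptor of macrophages, had 2.28 kb with the combination and none with OTX015. Among peaks with a −log10 q of at least 2 the difference (combination minus OTX015) was 3.78 kb for SIRPA. It was 0 for SIRPB1, SIRPB2, SIRPD, SIRPG and SIGLEC1.

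Within 10 kb of the 5′ end, 192 of the 531 genes (36.2%) had more bases under peaks with the combination, 124 (23.4%) had fewer, and 215 had none in either list. Over all 19671 genes of the genome 28.9% had more and 18.4% fewer. The side of the chromosome divided the genes, as 119 of 171 had more and 35 fewer in the first 25 Mb, with 216.9 kb and 110 kb in sum, whereas 73 of 360 had more and 89 fewer in the rest, with 52.9 and 95.9 kb.

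All 10 genes that led the excess with the combination lay in the first 5 Mb. After SIRPA they were led by C20orf96, with 6.56 kb with the combination and 1.18 kb with OTX015, a window shared with ZCCHC3. TGM3, an epidermal transglutaminase, had 6.54 and 1.38 kb. AP5S1, a subunit of an adaptor complex of late endosomes, had 5.37 and 2.05 kb. Each of these windows had peaks in both lists. Among peaks with a −log10 q of at least 2 the difference (combination minus OTX015) was 0 for TGM3 and AP5S1 and 0.591 kb for C20orf96.

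RNF24, a RING finger protein, had 3.04 kb with the combination and none with OTX015, and ATRN, the membrane and secreted glycoprotein attractin, 2.88 kb and none. CSNK2A1, the catalytic subunit of casein kinase 2, had 3.52 and 0.647 kb. STK35, a nuclear kinase, had 4.37 kb with the combination and 1.54 kb with OTX015, and the peak over its 5′ end was among the highest of the combination list, with a −log10 p of 7.59 against 6.07. SNRPB, which encodes a core protein of the spliceosomal snRNPs, had 3.27 and 0.697 kb, and GNRH2, a neuropeptide gene that shares its window with MRPS26, 2.98 and 0.457 kb. RASSF2, a Ras-association protein, had 4.76 kb with the combination and 2.49 kb with OTX015.

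In the opposite direction 8 of the 10 leading genes lay beyond 25 Mb. OCSTAMP, a membrane protein needed for osteoclast fusion (chr20:46540946-46550654), had 0.745 kb with the combination and 6.08 kb with OTX015, although its promoter had a peak in both lists. PLAGL2, a zinc finger factor that shares its window with POFUT1, had no peak with the combination and 3.38 kb with OTX015. PYGB, the brain form of glycogen phosphorylase, had 1.44 and 4.21 kb, though within 5 kb of its 5′ end the lists were about even, with a difference of 0.065 kb, and the stretch from ENTPD6 to PYGB (chr20:25195712-25298012) 3.34 and 14.9 kb. ZNF512B had 0.267 kb with the combination and 2.94 kb with OTX015 in a window shared with the splicing factor PRPF6.

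RGS19, a GTPase activator of G proteins, had 1.05 kb with the combination and 3.42 kb with OTX015. ZMYND8, a reader of acetylated and methylated histones, had 3.31 and 5.60 kb with a promoter peak in both lists. PEDS1-UBE2V1 had none and 2.16 kb, and TRPC4AP 0.221 and 2.0 kb. The exceptions before 25 Mb were RBCK1, a subunit of the linear ubiquitin ligase, with 2.66 kb with the combination and 7.16 kb with OTX015, and CST11, a cystatin of the epididymis, with none and 1.54 kb. TRIB3, a stress-induced pseudokinase next to RBCK1, also had less, 3.88 and 5.33 kb, so that the TRIB3 and RBCK1 stretch ran against its surroundings with 5.75 kb with the combination and 9.44 kb with OTX015. Among peaks with a −log10 q of at least 2 the difference (combination minus OTX015) was 0 for RGS19, PEDS1-UBE2V1, TRPC4AP and CST11. It was −0.373 kb for OCSTAMP and −0.618 kb for RBCK1, but −2.58 to −3.38 kb for ZMYND8, ZNF512B, PYGB and PLAGL2.

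**Figure D3:**
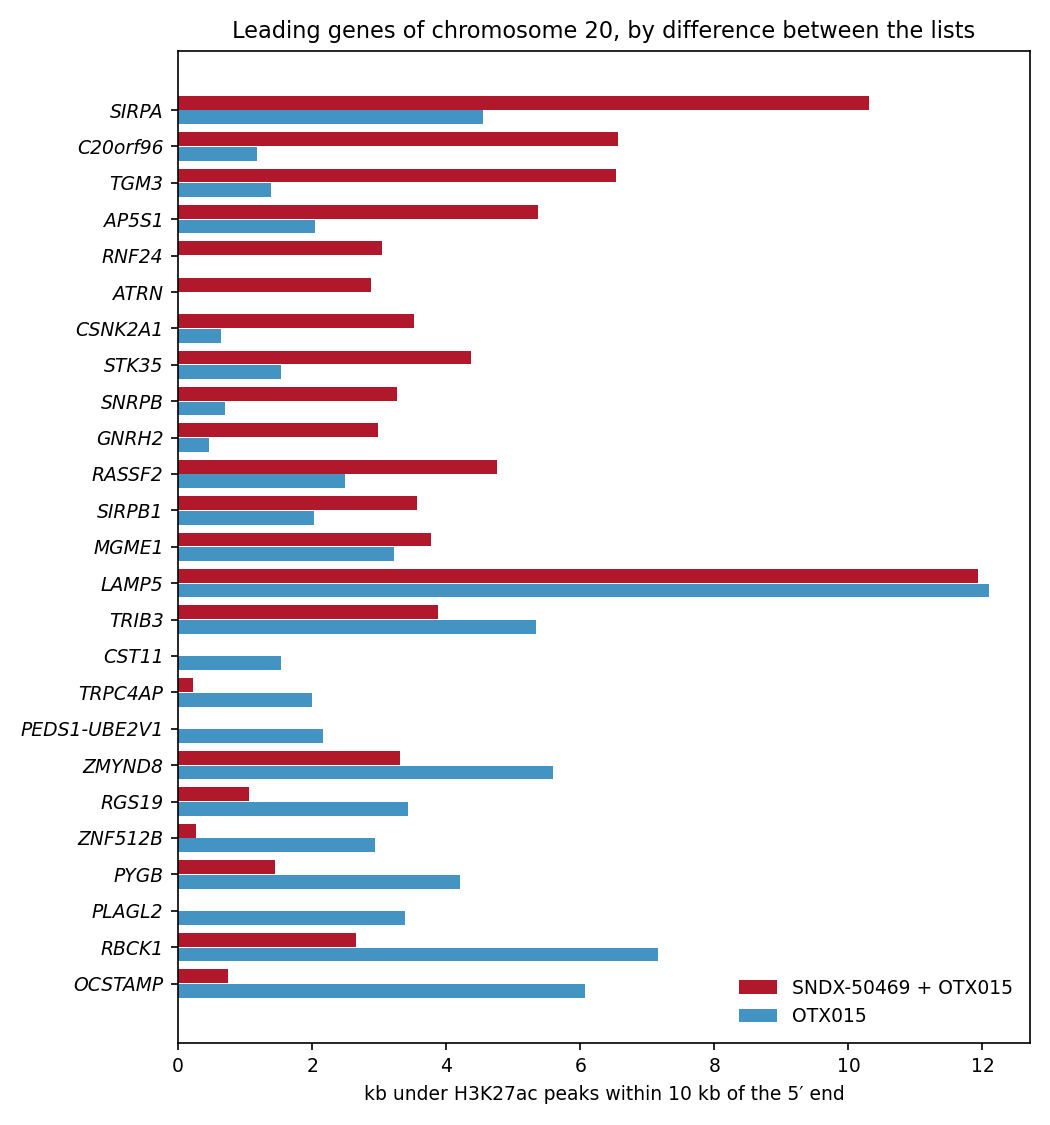
Kilobases under H3K27ac peaks within 10 kb of the 5′ end for the leading genes of chromosome 20, ordered by the difference between the lists (SNDX-50469 with OTX015 above OTX015 for each gene). SIRPA stands at the top, with 10.3 against 4.55 kb, LAMP5 stands at 11.9 against 12.1 kb with all peaks, and OCSTAMP stands at the bottom, with 0.745 against 6.08 kb.

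The gene with most bases under peaks near its 5′ end was LAMP5 in both lists. LAMP5 encodes a lysosome-associated membrane protein of plasmacytoid dendritic cells (chr20:9514590-9530524), and it had 11.9 kb with the combination and 12.1 kb with OTX015. With equal peak numbers the difference was −2.48 kb (combination minus OTX015), among peaks with a −log10 q of at least 2 it was −3.24 kb, and within 5 kb of the 5′ end −1.49 kb. The widest OTX015 peak, of 12.41 kb, reached a −log10 p of 12.35, whereas the 5 combination peaks that meet it reached at most 5.93 and covered 9.81 kb of it. The domain around LAMP5, with bounds set by the OTX015 list, held 22.1 kb under peaks with the combination and 30.3 kb with OTX015. CD93, a receptor of myeloid and endothelial cells, had 0.382 kb with the combination and 0.638 kb with OTX015 near its 5′ end, and its promoter peak was found with OTX015 only. A domain some distance upstream of it (chr20:23093450-23179148, bounds of the combination list) was large in both lists, with 33.1 kb with the combination and 26.1 kb with OTX015. Within the bounds of the OTX015 list it had 30.5 and 26.1 kb. Other shared domains, also with bounds of the combination list, were near RNF24 (chr20:4010733-4113765), with 35.1 and 23.8 kb, and over RASSF2 and SLC23A2, with 36.5 and 16.3 kb. Within the bounds of the OTX015 list the domain near RNF24 had 28.6 and 21.5 kb. Bounds drawn from a list favor that list.

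At promoters, 98 of 531 genes (18.5%, 95% Wilson interval 15.4 to 22%) had a peak with the combination and 78 (14.7%, 11.9 to 18.0%) with OTX015. Over all genes of the genome the shares were 15.3% and 14.9%. The order of the lists turned within 500 bases of the 5′ end (66 genes with the combination and 69 with OTX015), with equal peak numbers (65 and 78) and among peaks with a −log10 q of at least 2 (18 and 30). Both lists had a peak at 48 genes, the combination alone at 50 (9.42%, against 6.33% of all genes) and OTX015 alone at 30 (5.65%, against 5.9%). Both-list promoters made up 9.02% of all genes and 9.04% on chromosome 20. In the first 25 Mb 64 of 171 genes (37.4%, 30.5 to 44.9%) had a promoter peak with the combination and 37 (21.6%, 16.1 to 28.4%) with OTX015, and beyond it 34 of 360 (9.44%) and 41 (11.4%).

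**Figure D4:**
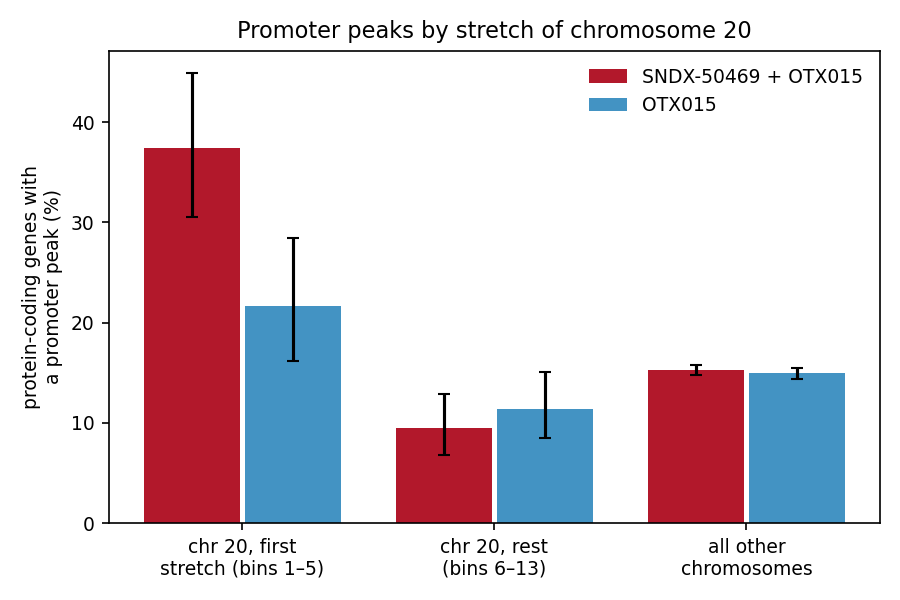
Percent of protein-coding genes with an H3K27ac peak within 1 kb of the 5′ end in the first 25 Mb of chromosome 20, in the rest of it and on all other chromosomes (bars, SNDX-50469 with OTX015 left of OTX015, with 95% Wilson intervals that cover counting error only). The first stretch stands above the others, at 37.4% against 21.6%, and the rest lies lower, at 9.44% against 11.4%.

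Promoters with a peak in both lists were ranked by the lower of their −log10 p values. MGME1 and SNX5 shared the first place, with a −log10 p of 7.23 with the combination and 9.40 with OTX015. RBM39, a splicing factor, followed with 6.82 and 7.80, and ZCCHC3, a zinc knuckle protein of nucleic acid sensing, with 6.63 and 7.66. Among promoters with the combination only, CTSZ had 0.640 kb at 5.28 and SSTR4 0.390 kb at 5.23. TMC2, a gene of inner ear hair cells, had 0.209 kb at 4.98 and ATRN 0.316 kb at 4.97. Among those with OTX015 only, CEBPB had 0.258 kb at 6.63, PCIF1 0.231 kb at 6.12, SOX12, a transcription factor of the SOX family, 0.451 kb at 5.53, NELFCD, a subunit of the complex that pauses RNA polymerase, 0.145 kb at 5.39, and PLAGL2 0.827 kb at 5.34. Most of these calls are single short peaks, and PCIF1 and NELFCD had 0.721 and 0.178 kb within 10 kb of the 5′ end with the combination, against 0.593 and 0.145 kb with OTX015.

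None of the 12 listed hematopoietic and proliferation transcription factors lies in the first 25 Mb. With the combination 4 of them (33.3%) had more bases near the 5′ end, 1 (8.33%) had fewer and 7 had none in either list, where 36.2% of all genes of the chromosome had more and 23.4% fewer, and the sums were 2.64 and 2.63 kb. CEBPB was the 1 with fewer, 0.139 kb with the combination and 1.24 kb with OTX015, although in the 200 kb on either side of the gene the lists had 3.68 and 3.93 kb. GMEB2, which encodes a DNA-binding cofactor of the glucocorticoid response, had 0.788 kb and none. E2F1, the cell cycle factor, had 0.968 and 0.775 kb, a difference that became −0.775 kb with equal peak numbers, and ZNF217 0.614 and 0.506 kb.

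Of 33 listed myeloid and immune genes, 11 (33.3%) had more with the combination, 10 (30.3%) had fewer and 12 had none, near the 36.2% and 23.4% of all genes of the chromosome, with 33.9 and 22.7 kb in sum. The excess was that of the SIRP genes and SIGLEC1, since the 10 members in the first 25 Mb had 26.2 and 12.8 kb and the 23 others 7.62 and 9.91 kb. THBD, the thrombin receptor thrombomodulin, had 1.37 kb with the combination and 2.0 kb with OTX015 (within 5 and 20 kb it had more with the combination, by 0.257 and 0.272 kb), CST3, the secreted protease inhibitor cystatin C, 1.57 and 2.15 kb, and ADA, adenosine deaminase, 1.86 and 2.81 kb, with 0.434 kb more with the combination within 5 kb. MMP9, a gelatinase of neutrophils and macrophages, had 1.72 and 0.690 kb, and BPI, a neutrophil granule protein, 1.46 and 0.896 kb.

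Chromatin regulators were nearly even, with 6 of 17 (35.3%) having more with the combination, 4 (23.5%) fewer and 7 none, as over all genes, and 4.68 and 4.53 kb in sum. ASXL1, the partner of the BAP1 deubiquitinase that is often mutated in myeloid disease, had 0.920 kb with the combination and 1.27 kb with OTX015. ZNF335 had 1.23 and 0.369 kb, ADNP 0.866 and 1.27 kb, and TAF4, a subunit of TFIID, none and 0.668 kb.

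Among 17 cell cycle and replication genes 6 (35.3%) had more with the combination and 8 (47.1%) fewer, with 4.97 and 6.44 kb, and 5 (29.4%) had a promoter peak with the combination, against 9 (52.9%) with OTX015, where all genes of the chromosome had 18.5% and 14.7%. Of these genes 13 lie beyond 25 Mb, with 3 promoters with a peak with the combination and 7 with OTX015. The 4 before it had 2 and 2. These were CENPB and CDC25B, which stand head to head and had the same promoter cover in each list, 0.164 kb with the combination and 0.413 kb with OTX015. Their promoter peaks are thus counted for both genes, and they are also the 2 of these 4 with fewer bases near the 5′ end. The promoters of TPX2, RBL1, FAM83D, CSE1L and AURKA had a peak with OTX015 only, with 0.266 to 0.858 kb. That of RTEL1 had one with the combination only, with 0.133 kb. Among peaks with a −log10 q of at least 2, the window difference was 0 for TPX2, RBL1 and FAM83D. AURKA, a mitotic kinase, had none and 0.858 kb, TPX2, its activator on the spindle, none and 0.406 kb, and RBL1, a pocket protein that holds E2F factors, 0.106 and 0.496 kb. PCNA, the replication clamp, had 1.47 kb with the combination and 0.924 kb with OTX015.

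Of 22 genes of RNA, translation and the proteasome, 11 (50%) had more with the combination, 6 (27.3%) fewer and 5 none, with 11.2 and 7.28 kb in sum. Of the 6 members in the first 25 Mb 5 had more, among them SNRPB, the ribosome biogenesis factor NOP56 with 1.29 and 0.135 kb, and IDH3B, a mitochondrial dehydrogenase subunit, with 1.21 and 0.447 kb. Among peaks with a −log10 q of at least 2, SNRPB had less with the combination, by 0.365 kb. The stretch from SNRPB to IDH3B (chr20:2461642-2664216) had 12.2 kb with the combination and 2.94 kb with OTX015. PRPF6 had 0.267 and 2.94 kb.

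Of 15 survival and kinase genes 6 (40%) had more, 2 (13.3%) fewer and 7 none, with 8.92 and 7.26 kb, and JAG1, a Notch ligand, had 1.14 kb with the combination and 0.118 kb with OTX015, PLCB4, a phospholipase, 0.765 kb and none near its 5′ end, and SRMS, a kinase of the Src family, 0.680 kb and none. Of 27 genes used outside blood, 16 had no peak in either list, where 215 of all 531 genes had none. In the first 25 Mb 9 of 11 members had cover, near the 154 of 171 of all genes there. Beyond it 2 of 16 members had cover, where 162 of 360 genes did. A promoter peak was found at 1 member (3.70%) with the combination, against 0 with OTX015, where all genes had 18.5% and 14.7%. SNAP25, a synaptic protein, had 1.08 and 0.235 kb, NKX2-2, a factor of neurons and islets, 0.720 kb and none, and AVP, the vasopressin gene, 0.220 and 0.887 kb. Over the 316 genes of the chromosome with a peak in the window of either list the median difference was 0.163 kb, with 0.532 kb in the first 25 Mb and −0.112 kb beyond it. With genes without a peak counted as 0, the median difference over all 531 genes was 0, as it was in each gene list other than that of RNA, translation and the proteasome, where it was 0.032 kb.

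Families clustered on the chromosome were also counted, and were chosen after the values were seen. Over all genes of the chromosome 316 of 531 (59.5%) had peaks in this 10 kb window in at least 1 list, 154 of 171 (90.1%) in the first 25 Mb and 162 of 360 (45.0%) beyond it. Without the members already counted as myeloid and immune genes, 6 of 9 cystatin genes near 23 Mb (66.7%) had such a peak, and 5 of those had fewer bases with the combination, 1.16 against 3.21 kb in sum. Of 13 beta-defensin genes 2 had any peak, both in the first 25 Mb, where 6 of them lie. Beyond 25 Mb 1 of 8 BPI-fold genes and 2 of 13 WAP-domain genes had one.

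With the combination 380 of 2527 peaks (15.0%, 13.7 to 16.5%) met an OTX015 peak by at least 1 base, and with OTX015 362 of 1790 (20.2%, 18.4 to 22.2%) met one of the combination. Over all other chromosomes the shares were 21.2% of combination peaks and 33.8% of OTX015 peaks, and over the 18 without dense peaks 18.6% and 20.2%. Shared bases made up 196.5 kb, which is 19.2% of combination cover and 25.2% of OTX015 cover. The chance of being met followed width. Peaks under 200 bases were met in 6.31% of cases with the combination and 6.91% with OTX015, peaks of 1 to 2 kb in 55.2% and 67.4%, and those of 2 kb or wider in 28 of 29 and 41 of 43. A wide peak also has more bases to be met by.

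**Figure D5:**
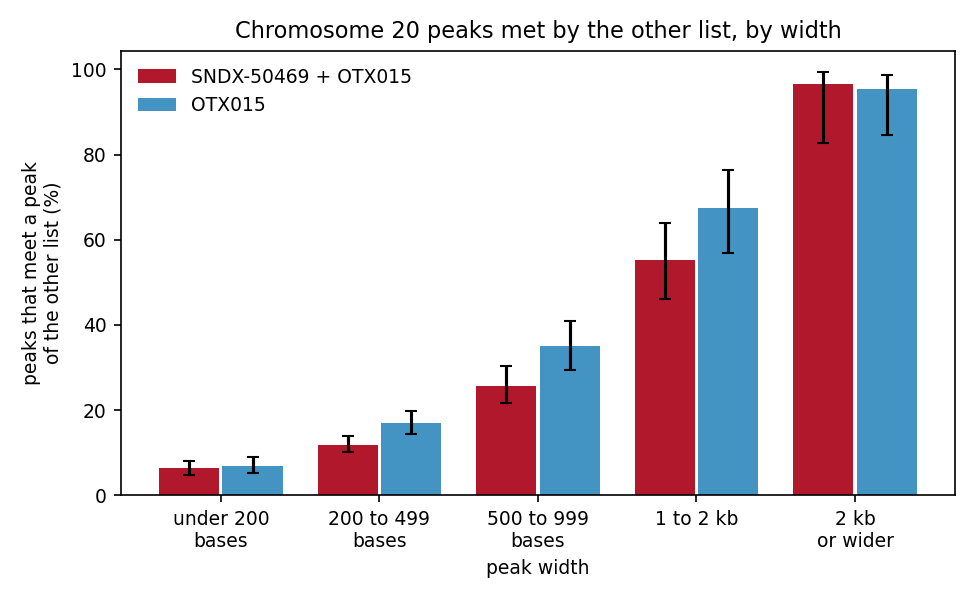
Percent of chromosome 20 peaks that meet a peak of the other list by at least 1 base, by peak width (bars, SNDX-50469 with OTX015 left of OTX015, with 95% Wilson intervals that cover counting error only). Shares climb with width in both lists, from 6.31% and 6.91% under 200 bases to 28 of 29 and 41 of 43 peaks at 2 kb or wider.

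The highest peaks were partly the same places. The peak with the highest −log10 p of the combination list (chr20:4081443-4085814) lay 63.0 kb from the 5′ end of SMOX and reached 7.78 over 4.37 kb, and the OTX015 peak that meets it reached 5.65. The widest combination peak, in SLX4IP (chr20:10500619-10509565), spanned 8.95 kb and met 4 OTX015 peaks that covered 5.45 kb of it. After LAMP5, the next highest OTX015 peak (chr20:31060475-31060697) was 0.223 kb wide at 12.28, met no combination peak and lay 197.0 kb from the nearest 5′ end, and another (chr20:28495610-28495733) was 0.124 kb wide at 7.93 and lay 2761.9 kb from one. Another short peak near the first of these, at chr20:31068223-31069197, was found in both lists, with 7.24 with the combination and 8.80 with OTX015. These short peaks lie near the centromere. From 26 to 31 Mb no gene was counted, and the only cover was 0.427 kb with the combination and 0.895 kb with OTX015, from 28 to 29 Mb. Whether reads map uniquely at these short peaks was not tested. Joined peaks made 783 domains with the combination and 829 with OTX015, of which 209 and 172 held 3 or more peaks, and 172 and 123 of those lay in the first 25 Mb.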

How the data were processed

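H3K27ac was profiled by ChIPmentation, in which Tn5 tagments the chromatin, in 1 library per treatment; the input libraries were not used here. The titles write H2K27Ac, while the antibody is listed as anti-H3K27Ac. The submitters' notes name bcl2fastq 2.17, Trimmomatic 0.33, Bowtie 1.1.2, MACS2 2.1.0, deepTools and hg38, whereas the study's methods name other tools. The authors deposited broad peak lists in which each peak has a score, a fold ratio, a −log10 p and a −log10 q. No counts or totals were used, so read depth is unknown. The background per library was solved from the fold ratio and −log10 p of the lowest peaks, which the authors deposited to 5 decimals.

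Peaks were merged and cover was summed per bin, promoter (1 kb either side of the 5′ end), window (10 kb either side) and gene record, for 531 RefSeq protein-coding genes of GRCh38.p14. Of 20033 such genes on all chromosomes 19671 had a strand. Strands came from the RefSeq promoter table for 15841 genes and from GENCODE by symbol for 3830. Gene records were read from their outer end on the coding strand as the 5′ end. Domains joined peaks within 12.5 kb, leaving out peaks within 2.5 kb of a 5′ end from the joining.

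Genes named are the 10 with most cover in each list and the 10 with the largest difference each way, at least 20 kb apart, the 5 with the highest promoter peak per class (for both lists, ranked by the lower −log10 p), the 4 members of each of 7 gene lists (143 genes) with the largest difference, genes nearest the highest peaks and domains, and LAMP5 and CD93. Some genes that these rules pick are not reported here. Other genes and families were named after their values were seen. Members, lists and rules were chosen with earlier results of these data known. Intervals are 95% Wilson intervals. Cover and overlap code and the background solver were tested on simulated data. Scripts ran on scipy 1.17.1, pandas 2.3.3, numpy 2.4.6 and matplotlib 3.10.9 under Python 3.11.15.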

Additional observations from a re-analysis of the deposited data

How the results depend on the processing

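With 1 library per treatment no library could be left out. No paired analysis was possible because each treatment has 1 library. The read totals behind the lists are unknown, and the caller's lowest values hold 18.7% of the combination peaks and 29.1% of the OTX015 peaks. The settings that put the lists on 1 scale decided the direction over the whole chromosome. With equal peak numbers the combination kept 1494 peaks, and the ratios of combination to OTX015 were 0.896 for cover, 0.835 for peaks and 0.426 for cover beyond 25 Mb, with 65 promoter genes with the combination, overlap shares of 19.3% and 16.0%, and 2 bins higher. The common enrichment over background is a cut that no OTX015 peak can fail, so low ratios follow from it. There the combination kept 30 peaks, and the ratios were 0.0543 for cover, 0.0168 for peaks, 0.0664 for the first 25 Mb and 0.0304 beyond it, with 7 promoter genes, overlap shares of 60% and 1.40%, and 0 bins higher. With a −log10 q of at least 2 there were 18 and 30 promoter genes and overlap shares of 17.9% and 28.7%. Asking for an overlap of at least 50% of the peak gave 9.38% and 11.7%, and allowing 1 kb gave 28.5% and 35.7%. In bins of 1 Mb 27 of 65 were higher with the combination. The share of cover in the first 25 Mb stayed between 79.9% and 84.1% with the combination, against 66.5% with OTX015, and the quotient of the first-stretch and second-stretch ratios between 2.0 and 2.66 (2.40 with all peaks). These shares and quotients, the splits at 20, 24 and 26 Mb, the stretches without the first 5 Mb or from 32 Mb on, and the promoters with other RefSeq 5′ ends were chosen after seeing the data, and both stretch ratios kept their side of 1 under those splits and stretches.

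Of 67 genes with a window difference (combination minus OTX015, in kb), 32 kept the direction at the common enrichment, 63 with equal peak numbers, 32 with the q minimum (27 had a difference of 0), 63 with a 5 kb window, 62 with a 20 kb window and 62 with the gene body. At the common enrichment the sign turned for SIRPA (−4.55), AP5S1 (−2.05), SIRPB1 (−2.03), RASSF2 (−1.80), TGM3 (−1.38), PCNA (−0.924), BPI (−0.896), SIRPD (−0.876), E2F1 (−0.775), MGME1 and SNX5 (−0.735 each), SNRPB (−0.697), MMP9 (−0.690), SSTR4 (−0.675), CSNK2A1 (−0.647), PCIF1 (−0.593), TMC2 (−0.534), ZNF217 (−0.506), GNRH2 (−0.457), IDH3B (−0.447), ZNF335 (−0.369), SNAP25 (−0.235), CTSZ (−0.179), NELFCD (−0.145), NOP56 (−0.135) and JAG1 (−0.118), since nearly all combination peaks are removed. With equal numbers it turned for E2F1 (−0.775), PCIF1 (−0.238), SNAP25 (−0.235) and IDH3B (−0.156). With the q minimum it turned for PCNA (−0.924), SNRPB (−0.365), MGME1 and SNX5 (−0.364 each), ZNF217 (−0.251), PCIF1 (−0.231), ZNF335 (−0.229) and NELFCD (−0.145). A 5 kb window turned ADA (0.434), THBD (0.257) and PYGB (0.065). A 20 kb window turned PCIF1 (−1.61), ZNF217 (−0.784), SOX12 (0.456), CD93 (0.334) and THBD (0.272), and the gene body PLCB4 (−5.65), PCIF1 (−1.61), ZNF217 (−0.969), ZNF335 (−0.912) and CD93 (0.218).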
